A study of Mus musculus with 30 samples.

Results

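The nuclear receptors of the liver are transcription factors that bind small fat-soluble ligands or act without a known one, and 32 of their genes were followed here, from Ppara, the fatty acid sensor, to Nr5a2, a receptor of bile acid and cholesterol genes. Every array probe annotated to 1 of the 32 symbols was taken, whatever its signal, out of 16593 named genes on the array. Of these receptors 30 had a probe and 18 were detected. Nr1h2 and Nr3c2 were not analysed here.

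Most of these receptors bind DNA through a pair of zinc fingers and recognise copies of a short hexamer, called the half-site. Ppara, the liver X receptor Nr1h3, the farnesoid X receptor Nr1h4, the xenobiotic receptors Nr1i2 and Nr1i3 and the retinoic acid, thyroid hormone and vitamin D receptors pair with a retinoid X receptor (Rxra, Rxrb or Rxrg), while others such as Nr5a2, Rora and Esrra can bind alone. In the liver they set the expression of enzymes for fatty acid oxidation, bile acid synthesis, lipogenesis, gluconeogenesis and drug metabolism.

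Livers came from 15 mice of the SA_15% group, whose chow contained 77.6 g/kg food of sebacic acid, a dicarboxylic fatty acid with a medium-length chain, and from 15 mice of the Ctrl group on the same chow without it. The supplement supplied 15% of energy, about 9 g/kg body weight per day by the labels, for 6 weeks. All 30 animals were male db/db mice (BKS.Cg-m+/+Leprdb/J), aged 6 to 8 weeks when they entered the study, a strain without functional leptin receptor that grows obese and diabetic, so that no lean liver served as a reference. RNA of each liver was hybridized to 1 Illumina MouseRef-8 v1.1 array, whose signal is the brightness of the beads of a probe, and n is 15 mice per group. Mean intensity per array was 327 to 498 in SA_15% livers and 314 to 451 in Ctrl livers, between 11213 and 11783 probes were detected in SA_15% livers and between 10984 and 11697 in Ctrl livers, and no array stood apart from its group. Of 9 hepatocyte markers with a probe, 7 were detected, among them Ttr, Apoa1 and Cps1, while the probes for Alb and Tat were not detected. Signals are given as log2 of the quantile normalized intensity, a difference is SA_15% minus Ctrl on that scale, and the number of arrays limits its precision. Signals of different probes cannot be set against each other, because probes differ in how brightly they hybridize.

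A receptor counted as detected when 15 or more of the 30 arrays gave its brightest probe a detection p-value under 0.05. By this rule 17 receptors were detected on all 30 arrays. Vdr, the vitamin D receptor, lay exactly on the limit, with 2 SA_15% and 13 Ctrl arrays, and the next below it was Nr3c1, the glucocorticoid receptor, with 6 SA_15% and 6 Ctrl arrays. Rarg was detected on 5 arrays, and Ppard, Rara and Thra on 2 each. The probes of Rorb, Thrb, Hnf4g, Nr2c2, Nr0b2, Nr4a1 and Nr4a2 were at background on every array. Mean log2 signals of the 12 receptors with undetected probes ran between 5.71 and 6.14 in SA_15% livers and between 5.73 and 6.18 in Ctrl livers. A probe at background does not show that its gene was silent, so for the small heterodimer partner Nr0b2, a repressor of bile acid synthesis, for the thyroid hormone receptors and for the glucocorticoid receptor these arrays give no usable level.

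**Figure D1:**
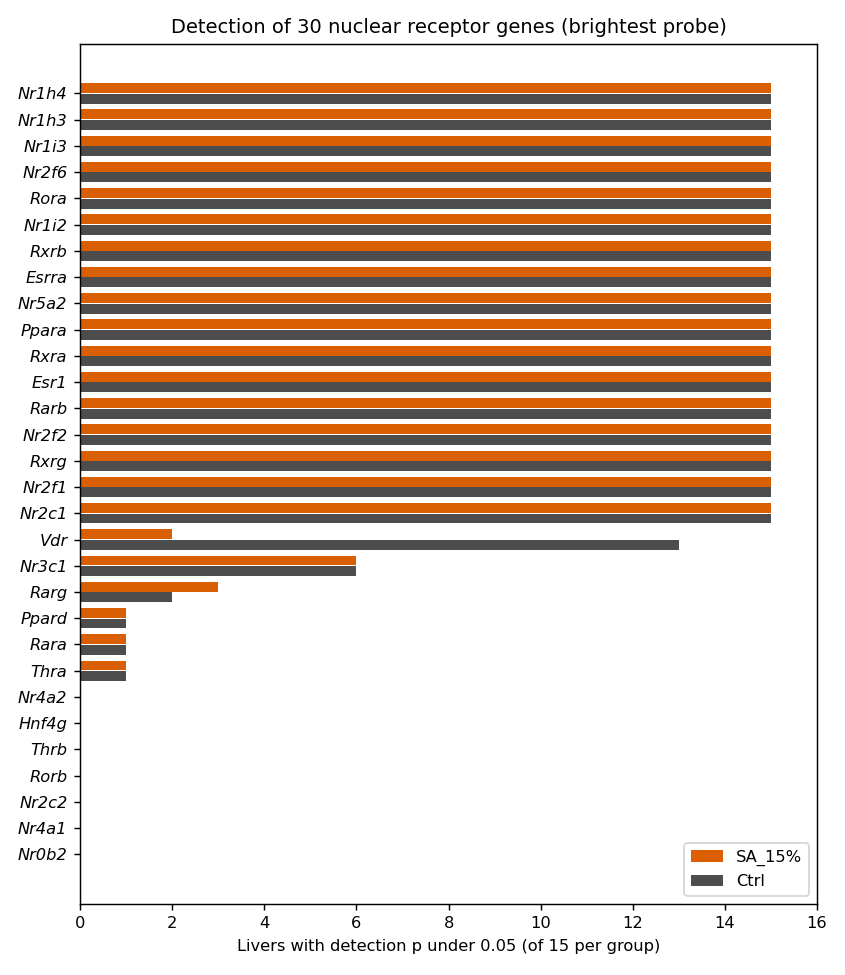
Number of livers, of 15 SA_15% and 15 Ctrl, in which the brightest probe of each of 30 receptor genes had a detection p-value under 0.05. 17 receptors reach 15 livers in both groups, Vdr reaches 2 in SA_15% and 13 in Ctrl, and 7 receptors have no bar.

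Sequence upstream of the receptor genes was taken from RefSeq (assembly GRCm38.p6), which gave 42 windows of 250 bases before a transcription start for 29 of the 32 receptors. Each window was searched on both strands for the half-site AGGTCA, the GC box GGGCGG, the E-box CACGTG, the TATA box letters TATAAA, and GTTCANNNNNNGTTCA, a spaced direct repeat of the kind known as a retinoic acid response element, which is not counted among the AGGTCA matches. Of the 29 receptors 17 had a GC box, 6 a half-site, 4 an E-box, 4 the TATA letters and 1 the spaced repeat, in at least 1 window. Among all 32851 windows of the table the shares were 32.7% for the GC box, 14% for the half-site, 6.02% for the E-box, 12.4% for the TATA letters and 0.067% for the repeat. Receptors with several starts have several windows, so that their counts are not on the footing of single windows. Besides Nr5a2, the half-site was found in Nr1h4, Rxra and Rxrg, which did not pass the test, and in the undetected Rarg and Thrb. No other receptor called lower in SA_15% livers had it. The 5 windows below are shown because Esrra had the largest decrease and Rxrb the largest increase among the receptors with quantile normalization, Vdr had the most SA_15% livers (12) outside the Ctrl range, Nr5a2 carries the half-site in a gene that was lower in SA_15% livers, and Rarb is the receptor with the spaced repeat. They are written 5′ to 3′ in the direction of the gene, and capitals mark the GC box or its reverse complement in Esrra, Vdr and Rxrb, the half-site in Nr5a2 and the spaced repeat in Rarb.
Esrra, chr19:6921809-6922058, minus strand: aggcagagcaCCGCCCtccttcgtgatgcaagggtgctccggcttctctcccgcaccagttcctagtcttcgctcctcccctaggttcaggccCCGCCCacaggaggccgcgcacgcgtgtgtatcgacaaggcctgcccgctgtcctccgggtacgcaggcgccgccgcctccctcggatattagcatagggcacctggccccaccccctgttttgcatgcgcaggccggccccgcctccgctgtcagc
Vdr, chr15:97908297-97908546, minus strand: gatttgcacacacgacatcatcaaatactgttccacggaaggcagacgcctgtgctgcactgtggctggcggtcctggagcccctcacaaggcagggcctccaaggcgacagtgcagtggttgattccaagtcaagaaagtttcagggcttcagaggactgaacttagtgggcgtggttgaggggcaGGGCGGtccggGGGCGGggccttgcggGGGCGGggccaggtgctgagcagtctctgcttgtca
Rxrb, chr17:34031562-34031811, plus strand: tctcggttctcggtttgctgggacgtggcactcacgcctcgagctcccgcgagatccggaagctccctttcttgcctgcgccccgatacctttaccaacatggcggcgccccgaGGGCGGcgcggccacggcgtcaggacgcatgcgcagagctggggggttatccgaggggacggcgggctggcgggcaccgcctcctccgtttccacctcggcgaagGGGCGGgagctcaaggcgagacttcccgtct
Nr5a2, chr1:136960449-136960698, minus strand: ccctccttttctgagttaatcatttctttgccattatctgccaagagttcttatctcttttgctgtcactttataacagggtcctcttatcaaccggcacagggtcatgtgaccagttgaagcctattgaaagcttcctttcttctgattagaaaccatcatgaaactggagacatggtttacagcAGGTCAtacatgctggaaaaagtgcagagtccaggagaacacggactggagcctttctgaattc
Rarb, chr14:16575477-16575726, minus strand: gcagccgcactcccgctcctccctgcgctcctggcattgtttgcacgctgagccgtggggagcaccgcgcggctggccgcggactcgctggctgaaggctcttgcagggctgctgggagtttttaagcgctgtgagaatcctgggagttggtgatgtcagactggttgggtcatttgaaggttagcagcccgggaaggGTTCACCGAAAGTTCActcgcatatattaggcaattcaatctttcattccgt
The capitals begin 64 bases before the start in Nr5a2 and 52 bases before it in Rarb. A match is a description of letters and does not show that a factor binds there.

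Across the 18 detected receptors, 2 were higher and 6 lower in SA_15% livers at a limma adjusted p under 0.05, and 10 did not pass. The lower receptors were Esrra, Nr2f2, Vdr, Nr5a2, Nr1i2 and Nr2c1, and the higher ones were Rxrb and Nr2f1. The share called, 44.4%, stood beside 36.6% of all 11329 detected probes, of which 17.1% were higher and 19.4% lower. Vdr entered the test only through its Ctrl arrays and had to differ, so that 5 lower receptors remain without it, and among the 17 receptors detected on all arrays 41.2% were called, beside 39% of the 9247 probes detected on all arrays. The median difference of the 18 receptors was -0.02, and that of all detected probes was -0.01. Folds ran between 0.815 for Esrra and 1.14 for Rxrb, and the 95% interval of 16 receptors lay within 1.3-fold of no difference, the exceptions being Esrra and Nr5a2. No receptor passed the study's thresholds of an unadjusted p under 0.001 with a change of at least 1.3-fold, which 1.85% of the 25697 probes passed, and no receptor had groups that did not overlap, which 0.574% of the detected probes had. With arrays aligned by their medians alone, the median of all detected probes moved to -0.07 and calls split into 769 higher and 3066 lower, against 1942 and 2199 with quantile normalization. The median of an array was taken over all 25697 probes, most of them not detected. It lay near background, at intensities between 63.8 and 79.0 on SA_15% arrays and between 55.7 and 73.3 on Ctrl arrays. Median centring thus aligned arrays near background and not at the level of the detected probes. Small increases depended on which of the 2 scalings was used. Some small decreases did too, and Ppara passed as lower only with median centring (limma adjusted p = 0.0311). The part of background in these shifts was not tested.

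**Figure D2:**
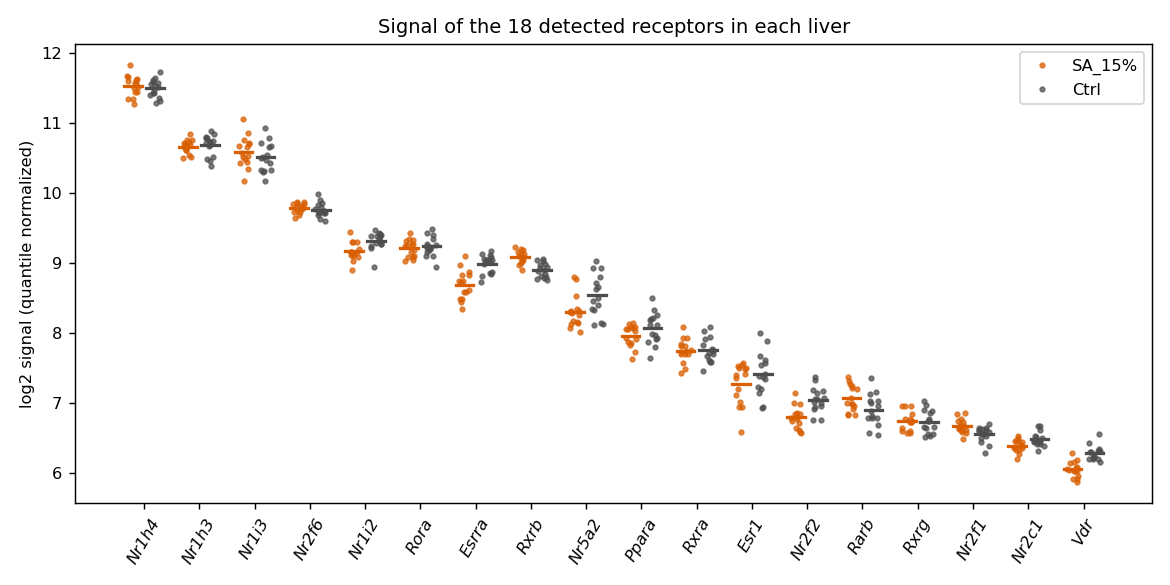
Log2 signal of the brightest probe of each of the 18 detected receptors in every liver (points, 15 SA_15% and 15 Ctrl) with group means (bars), arranged by mean signal. The clouds overlap for every receptor and the distance between receptors reflects the probes as well as the RNA.

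**Figure D3:**
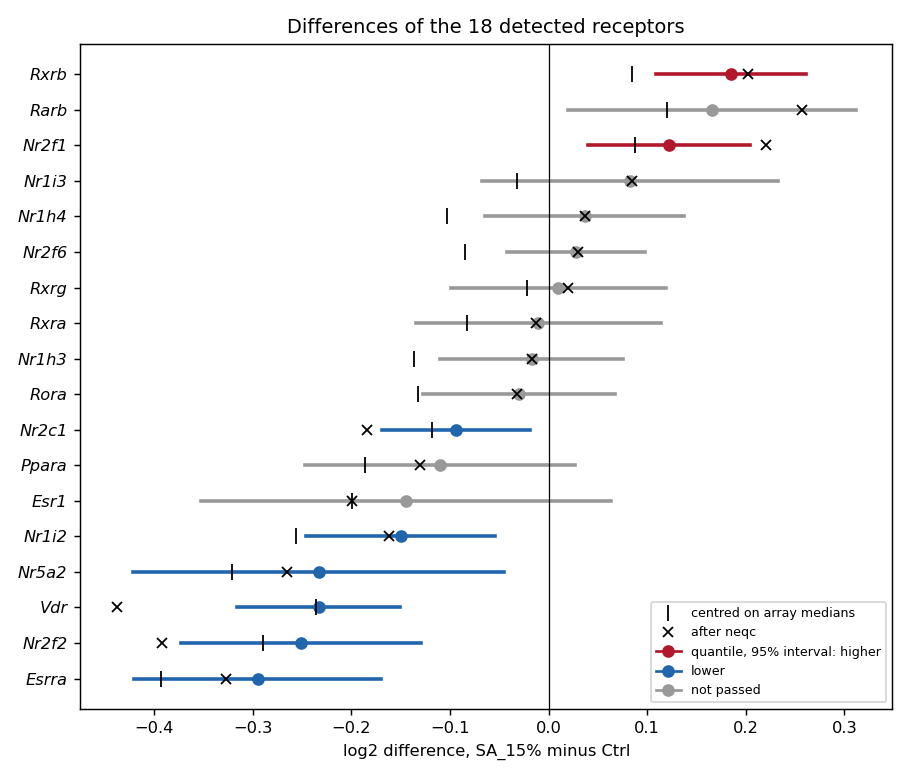
SA_15% minus Ctrl log2 difference of the 18 receptors with its 95% interval (circles and lines), and the same difference with arrays centred on their medians (vertical ticks) and after neqc background correction (crosses). Esrra lies lowest at -0.29 and Rxrb highest at 0.19, and most ticks lie left of their circles.

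Among the sensors of fatty acids and foreign compounds, Nr1i2 was lower in SA_15% livers and Ppara and Nr1i3 did not pass the test. Nr1i2 encodes the pregnane X receptor, which switches on genes for drug metabolism. Its lowest, median and highest log2 signals were 8.90, 9.15 and 9.43 in SA_15% livers and 8.94, 9.34 and 9.47 in Ctrl livers. The groups overlapped over most of their range, although 14 of 15 SA_15% livers lay under the Ctrl median. The difference was -0.15 (standard error 0.05), 0.901-fold, with a limma adjusted p of 0.0125. This call held in all 11 alternatives and without any single liver. Nr1i2 has 1 probe, so the alternative that averages the probes of a gene could not change its difference.

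Ppara, the fatty acid sensor that drives oxidation genes in the fasted liver, had log2 signals of 7.62, 8.02 and 8.14 (lowest, median, highest) in SA_15% livers and 7.64, 8.12 and 8.50 in Ctrl livers. Of the SA_15% livers 13 lay under the Ctrl median, and no SA_15% liver reached the upper end of the Ctrl range. The difference was -0.11 (95% interval -0.25 to 0.03, limma adjusted p = 0.205), and with arrays centred on their medians it was -0.19 (adjusted p = 0.0311). Nr1i3, the constitutive androstane receptor, had 10.16, 10.56 and 11.05 in SA_15% livers and 10.17, 10.50 and 10.92 in Ctrl livers, nearly the same span. Its difference was 0.08 (95% interval -0.07 to 0.23), turning to -0.03 with median centring. Ppard, the delta isotype, was detected on 2 of 30 arrays.

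The receptors of sterols and bile acids split in the same way, with Nr5a2 lower and Nr1h3 and Nr1h4 not passed. Nr5a2, also called liver receptor homolog 1, is an activator of bile acid and cholesterol transport genes. Its log2 signals were 8.01, 8.28 and 8.79 in SA_15% livers and 8.11, 8.49 and 9.03 in Ctrl livers. The Ctrl livers spread widely (SD 0.30) and only 2 SA_15% livers fell below all of them. The difference was -0.23 (standard error 0.09), 0.851-fold, with a limma adjusted p of 0.0464. A second detected probe of Nr5a2 was lower by a similar amount, with a difference of -0.20 (adjusted p = 0.0239), while the dimmest, detected on 20 arrays, differed by 0.07 (adjusted p = 0.20). The call of the brightest probe was not held firmly. It was lost without any 1 of 20 livers, namely Ctrl replicates 1, 2, 4, 6, 7, 8, 9 and 12 and SA_15% replicates 3, 4, 6, 7, 8, 9, 10, 11, 12, 13, 14 and 15, with adjusted p-values of 0.0519 to 0.083, and with the mean over the 3 probes it was -0.12 (adjusted p = 0.0852).

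Nr1h4, the bile acid receptor, had 11.27, 11.56 and 11.82 in SA_15% livers and 11.27, 11.51 and 11.72 in Ctrl livers. The difference was 0.04 with a 95% interval of -0.06 to 0.14, and it turned to -0.10 with median centring without passing the test in either scaling. Nr1h3, the oxysterol receptor of the liver, had 10.50, 10.68 and 10.83 in SA_15% livers and 10.38, 10.72 and 10.88 in Ctrl livers. Every SA_15% liver lay inside the Ctrl range, and the difference was -0.02 (95% interval -0.11 to 0.08). Its dimmer probe gave 0.09 (adjusted p = 0.381).

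Of the retinoid X receptors, the common partners, only Rxrb passed the test. Its log2 signals were 8.90, 9.10 and 9.23 in SA_15% livers and 8.76, 8.90 and 9.05 in Ctrl livers. All 15 SA_15% livers lay above the Ctrl median and 9 lay above every Ctrl liver. The difference was 0.19 (standard error 0.04), 1.14-fold, with a limma adjusted p of 2.4e-04. The call depended on the probe and on median centring. The dimmer probe of Rxrb, also detected on all arrays, differed by -0.04 (adjusted p = 0.651), the mean over both probes by 0.07 (adjusted p = 0.171), and the brightest probe with median centring by 0.08 (adjusted p = 0.262). Rxra had 7.43, 7.74 and 8.08 in SA_15% livers and 7.45, 7.75 and 8.08 in Ctrl livers, a difference of -0.01 (95% interval -0.13 to 0.11). Rxrg had 6.57, 6.73 and 6.95 in SA_15% livers and 6.51, 6.74 and 7.03 in Ctrl livers, a difference of 0.01 (95% interval -0.10 to 0.12). Both were thus measured to well within 1.3-fold of no difference.

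Rarb was the detected member of the retinoic acid receptors, which carry the signal of vitamin A derivatives. It had 6.83, 6.99 and 7.38 in SA_15% livers and 6.54, 6.89 and 7.36 in Ctrl livers. Of the SA_15% livers 12 lay above the Ctrl median and 1 above every Ctrl liver. The difference of 0.17 (95% interval 0.02 to 0.31) did not pass after adjustment (limma adjusted p = 0.0686), was 0.26 after neqc, and its second detected probe differed by -0.0059 (adjusted p = 0.942). It passed without any 1 of 6 livers, Ctrl replicates 1, 2 and 12 and SA_15% replicates 5, 10 and 15, with adjusted p-values of 0.0211 to 0.0496, and with the pooled error (0.0104). Rora, an activator of clock and lipid genes, had 9.02, 9.24 and 9.43 in SA_15% livers and 8.94, 9.23 and 9.49 in Ctrl livers, a difference of -0.03 (95% interval -0.13 to 0.07).

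Vdr, which mediates the action of vitamin D, lay close to the detection limit and is described without a test, because it was kept only through the Ctrl arrays and thus had to differ. Its log2 signals were 5.87, 6.04 and 6.28 in SA_15% livers and 6.15, 6.29 and 6.55 in Ctrl livers. All 15 SA_15% livers lay under the Ctrl median and 12 lay below every Ctrl liver. The difference was -0.23 (standard error 0.04), 0.851-fold. After neqc, which subtracts the background of each array, it was -0.44. The other 2 probes of Vdr were not detected and differed by -0.04 and 0.09, so the value rests on 1 probe that was above background in 2 of 15 SA_15% livers.

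Of the 3 COUP family receptors, which mostly repress and have no settled ligand, Nr2f2 was lower, Nr2f1 was higher with quantile normalization but not with median centring, and Nr2f6 did not pass. Nr2f2, known in vein endothelium and mesenchymal cells, had 6.57, 6.78 and 7.14 in SA_15% livers and 6.75, 7.05 and 7.37 in Ctrl livers. Of the SA_15% livers 14 lay under the Ctrl median and 6 below every Ctrl liver. The difference was -0.25 (standard error 0.06), 0.84-fold, with a limma adjusted p of 0.00135, and -0.39 after neqc. The 2 other probes of Nr2f2 were at background on every array and went the other way, by 0.04 and 0.11. For the latter all 15 SA_15% livers lay above the Ctrl median. The decrease of Nr2f2 thus rests on 1 probe. Nr2f1, its closest relative, had 6.48, 6.67 and 6.85 in SA_15% livers and 6.29, 6.58 and 6.70 in Ctrl livers, with 5 SA_15% livers above every Ctrl liver. The difference was 0.12 (standard error 0.04, limma adjusted p = 0.0175), 0.22 after neqc, and 0.09 with median centring, where it did not pass (adjusted p = 0.173). Nr2f6, the third of the family, had 9.64, 9.78 and 9.87 in SA_15% livers and 9.59, 9.73 and 9.98 in Ctrl livers, a difference of 0.03 (95% interval -0.04 to 0.10). In whole liver RNA, fewer cells of a type and less RNA per cell cannot be told apart. The markers of other cell types are given by their calls, beside 17.1% higher and 19.4% lower of all detected probes. Of the endothelial markers 9 of 10 were detected, with 3 higher and none lower (0 higher and 1 lower with median centring), and their summed linear signal was 3828 to 5436 in SA_15% livers and 3328 to 4670 in Ctrl livers. Of the stellate and fibroblast markers 5 of 11 were detected and none passed, with sums of 5120 to 7390 in SA_15% livers and 5182 to 8054 in Ctrl livers, and the collagen genes Col1a1, Col1a2 and Col3a1 were at background. Of the Kupffer cell and macrophage markers 9 of 12 were detected, with 4 higher and none lower (1 higher and none lower with median centring), and sums of 1386 to 3171 in SA_15% livers and 982 to 2679 in Ctrl livers. The endothelial marker Kdr and the Kupffer cell marker Cd5l were at background. Of 3 detected red blood cell markers 2 were higher, with sums of 11428 to 21313 in SA_15% livers and 5850 to 12892 in Ctrl livers. Of the 7 detected hepatocyte markers 2 were higher and 3 lower, with median sums of 116536 in SA_15% livers and 123700 in Ctrl livers. The part of these cells in the values of Nr2f2 and Vdr was not tested.

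Nr2c1, the testicular receptor 2, had 6.20, 6.38 and 6.53 in SA_15% livers and 6.31, 6.45 and 6.67 in Ctrl livers, and 10 of 15 SA_15% livers lay under the Ctrl median. The difference was -0.09 (standard error 0.04, limma adjusted p = 0.046), and -0.18 after neqc. This was the smallest of the called differences. The call was lost when all probes were tested (adjusted p = 0.061), with the pooled error (0.0986), and without any 1 of 15 livers (0.053 to 0.0828), namely Ctrl replicates 5, 7, 8, 9, 13 and 14 and SA_15% replicates 1, 3, 5, 7, 8, 9, 10, 11 and 14.

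Esrra, the estrogen-related receptor alpha, an orphan receptor that drives mitochondrial genes together with the coactivator Ppargc1a, had the largest difference among the 18 receptors. Its log2 signals were 8.33, 8.73 and 9.10 in SA_15% livers and 8.72, 9.03 and 9.16 in Ctrl livers. Of the SA_15% livers 14 lay under the Ctrl median and 7 below every Ctrl liver. The difference was -0.29 (95% interval -0.42 to -0.17), 0.815-fold, with a limma adjusted p of 3.6e-04. The call held in all 11 alternatives and without any single liver, and the differences in the alternatives were -0.39 to -0.29. Esrra has 1 probe, so the mean over probes could not change its difference. Esr1, the estrogen receptor, had 6.58, 7.40 and 7.56 in SA_15% livers and 6.93, 7.38 and 7.99 in Ctrl livers. It varied most between animals (SD 0.29 in SA_15% and 0.31 in Ctrl), and its difference of -0.14 (95% interval -0.35 to 0.06) did not pass (limma adjusted p = 0.277), except with the pooled error (0.0284).

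**Figure D4:**
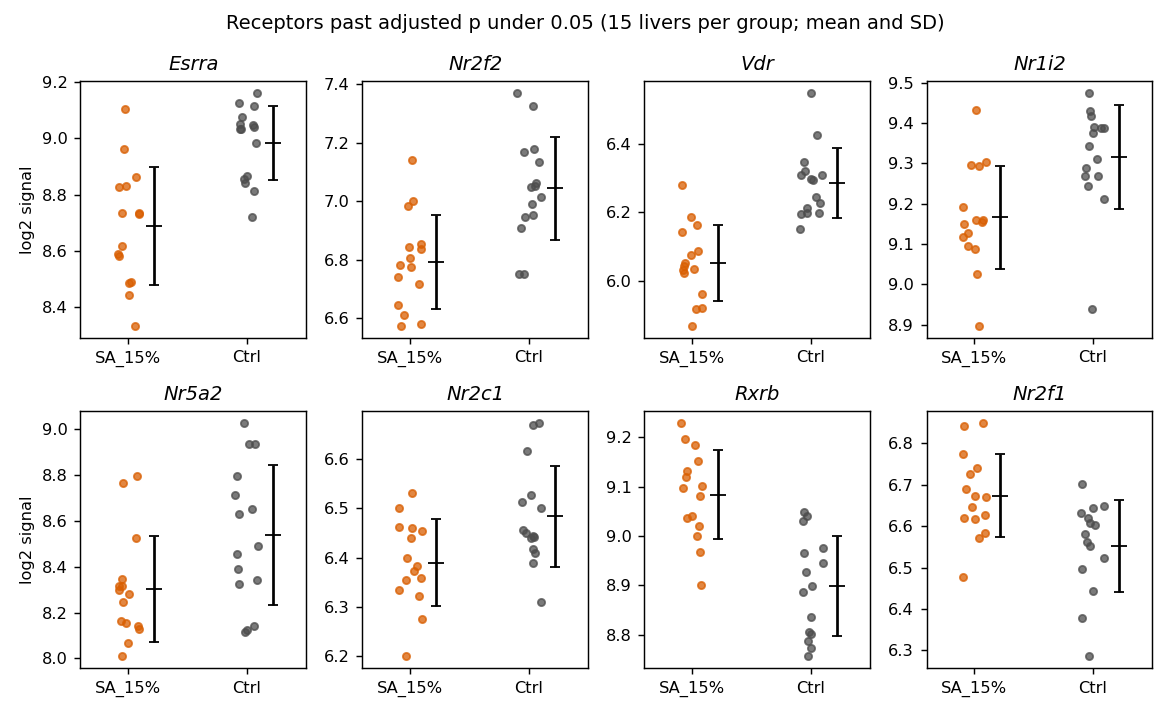
Log2 signal in each liver (points), with mean and SD (bars, n = 15 mice per group), of the 8 receptors past a limma adjusted p of 0.05. SA_15% livers lie lower in Esrra, Nr2f2, Vdr, Nr1i2, Nr5a2 and Nr2c1 and higher in Rxrb and Nr2f1, and both groups overlap in every panel. Vdr had to differ, since it was kept through its Ctrl arrays. The vertical axes differ between panels and do not start at 0.

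Other nuclear receptors and coregulators were read beside the 32. Of 7 other receptors detected, 1 was higher and 3 lower (median difference -0.12, against -0.01 for all detected probes). Pparg, the receptor of fat storage genes, had 8.69, 8.84 and 9.16 in SA_15% livers and 8.08, 8.40 and 8.72 in Ctrl livers, so that 14 SA_15% livers lay above every Ctrl liver, with a difference of 0.49 (standard error 0.06). Nr1d2, the clock repressor REV-ERB beta, was lower by 0.41 on the log2 scale (standard error 0.07), and 13 SA_15% livers lay below every Ctrl liver. Hnf4a, the master regulator of hepatocyte genes, fell by 0.29 (standard error 0.05). Of 16 detected coregulators 2 were higher and 4 lower, close to the 17.1% and 19.4% of all detected probes, among them Hdac3, a corepressor enzyme, at 0.22 and Med1, a Mediator subunit, at -0.21. Ppargc1a, the partner of Esrra, had a difference of -0.34 (standard error 0.11, limma adjusted p = 0.0123). With median centring 0 coregulators were higher and 9 lower, and Hdac3 was 0.11 (adjusted p = 0.219).

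Genes known to respond to each receptor were read next, as counts of detected genes past a limma adjusted p of 0.05, to be held against 17.1% higher and 19.4% lower of all detected probes. Some genes stand in several groups, and responses known from textbook biology need not pass through 1 receptor. The groups were chosen with earlier results of these data known, Pck1 and Scd1 among them, so their counts are descriptions only.

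Of 25 detected Ppara targets 12 were higher and 5 lower in SA_15% livers (median difference 0.14). The higher ones included Acot2, a mitochondrial acyl-CoA thioesterase, at 0.50 and Decr1, a reductase of unsaturated fatty acid oxidation, at 0.36. The lower ones included Creb3l3, a membrane-bound transcription factor of the liver, at -0.41 and Cyp4a14, a fatty acid omega-hydroxylase, at -0.22 (adjusted p = 0.0413). Cyp4a14 had 13.73, 14.12 and 14.46 in SA_15% livers and 13.84, 14.45 and 14.67 in Ctrl livers, and missed the threshold with all probes tested (adjusted p = 0.0621) and with the classical ANOVA (0.0579). With median centring the split was 8 higher and 6 lower.

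Of 12 detected liver X receptor targets 5 were higher and none lower (median difference 0.07). Pltp, the phospholipid transfer protein, had 8.35, 9.68 and 10.27 in SA_15% livers and 7.53, 8.57 and 9.37 in Ctrl livers, with 11 SA_15% livers above every Ctrl liver and a difference of 1.19 (standard error 0.18). Scd1, which desaturates stearate, had a difference of 0.76 (standard error 0.16). The sterol exporters Abcg8 and Abcg5 were at 0.33 (adjusted p = 0.00686) and 0.28 (adjusted p = 0.0147), and neither passed with median centring (adjusted p = 0.115 and 0.245), where 3 targets were higher and 1 lower.

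Several bile acid genes were lower in SA_15% livers. Of 6 detected farnesoid X receptor targets none was higher and 3 were lower (1 higher and 3 lower with median centring), namely the bile salt export pump Abcb11 (-0.26, standard error 0.07), the syndecan Sdc1 (-0.32) and Slc51b (-0.43), a subunit of the basolateral bile acid exporter. Abcb11 had 9.73, 10.22 and 10.47 in SA_15% livers and 10.07, 10.43 and 10.72 in Ctrl livers. Of 5 genes repressed through Nr0b2, none was higher and 3 were lower (4 with median centring). Cyp8b1, the sterol hydroxylase that makes cholic acid, had 11.42, 12.63 and 13.38 in SA_15% livers and 12.79, 13.24 and 13.57 in Ctrl livers, with 9 SA_15% livers below every Ctrl liver and a difference of -0.70 (standard error 0.15, limma adjusted p = 3.2e-04). Cyp7b1, of the alternative pathway of bile acid synthesis, differed by -0.29 and the bile acid importer Slc10a1 by -0.21. Cyp7a1, the rate-limiting enzyme, had a difference of -0.62 (standard error 0.31, adjusted p = 0.112), with wide spans of 8.81 to 11.64 in SA_15% livers and 8.77 to 12.34 in Ctrl livers. Of 6 detected Nr5a2 targets 3 were higher and 2 lower (1 and 2 with median centring), among them Plk3, a stress kinase, at 0.54 and Scarb1, the HDL receptor, at -0.37.

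Of 17 detected targets of Nr1i3 and Nr1i2, 4 were higher and 8 lower (median difference -0.15), and 3 and 10 with median centring. Cyp2b10, the classic target of the constitutive androstane receptor, had 7.77, 8.96 and 9.84 in SA_15% livers and 8.15, 9.92 and 10.48 in Ctrl livers, a difference of -0.78 (standard error 0.20, limma adjusted p = 0.00318). Alas1, the first enzyme of heme synthesis, was at -0.50 and Cyp2c50 at -0.26, while the exporter Abcc3 was at 0.43. Cyp3a11, the classic target of the pregnane X receptor, differed by -0.19 (adjusted p = 0.107), and by -0.32 with median centring (adjusted p = 0.0132). Cytochrome P450 genes of the same subfamily are close in sequence, and their probes may share signal.

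Of 12 detected glucocorticoid receptor targets 1 was higher and 7 lower (median difference -0.29, and 0 higher and 7 lower with median centring), although the receptor's own probe gave no usable level. Pck1, the gluconeogenic enzyme, had 7.89, 8.28 and 8.72 in SA_15% livers and 8.84, 9.19 and 9.66 in Ctrl livers, and these groups did not overlap, with a difference of -0.89 (standard error 0.07). Tdo2, which opens tryptophan breakdown, was at -0.74, Fkbp5, a chaperone of steroid receptors, at -0.63 and Tsc22d3, the glucocorticoid-induced leucine zipper, at -0.47. Of 10 detected HNF4 targets 2 were higher and 7 lower (3 and 7 with median centring), among them the urea cycle enzyme Otc (-0.22) and, higher, Ttr (0.24), which carries thyroid hormone.

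The remaining groups were small. Of 5 detected retinoic acid targets, Tgm2, a transglutaminase, was higher (0.65, standard error 0.07) and Cyp26a1, which breaks down retinoic acid, lower at -0.25, near background with detection in 4 SA_15% and 12 Ctrl livers. Crabp2, a retinoic acid carrier, was lower at -0.10 with the same counts of detection, and both genes thus entered the test mainly through the Ctrl group. Of 7 thyroid hormone targets 2 were higher and none lower (1 and 1 with median centring), Hr, the hairless corepressor, at 0.61 and Gpd2 at 0.31, and Gpd2 did not pass with median centring (adjusted p = 0.07). Dio1, which activates thyroid hormone, was at 0.44 (adjusted p = 0.0684) and Thrsp at -0.22 (adjusted p = 0.33). Of 10 detected targets of the ROR and REV-ERB receptors 1 was higher and 3 lower (0 and 5 with median centring), and Elovl3, a fatty acid elongase, differed by -0.18 (adjusted p = 0.287). Of 9 detected Esrra targets, Esrra itself included, 3 were higher and 3 lower (1 and 3 with median centring). Esrra was among the lower ones with both scalings. The called genes included Pdk4, the brake on pyruvate dehydrogenase, at 0.72 (standard error 0.15) and cytochrome c, Cycs, at -0.26.

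**Figure D5:**
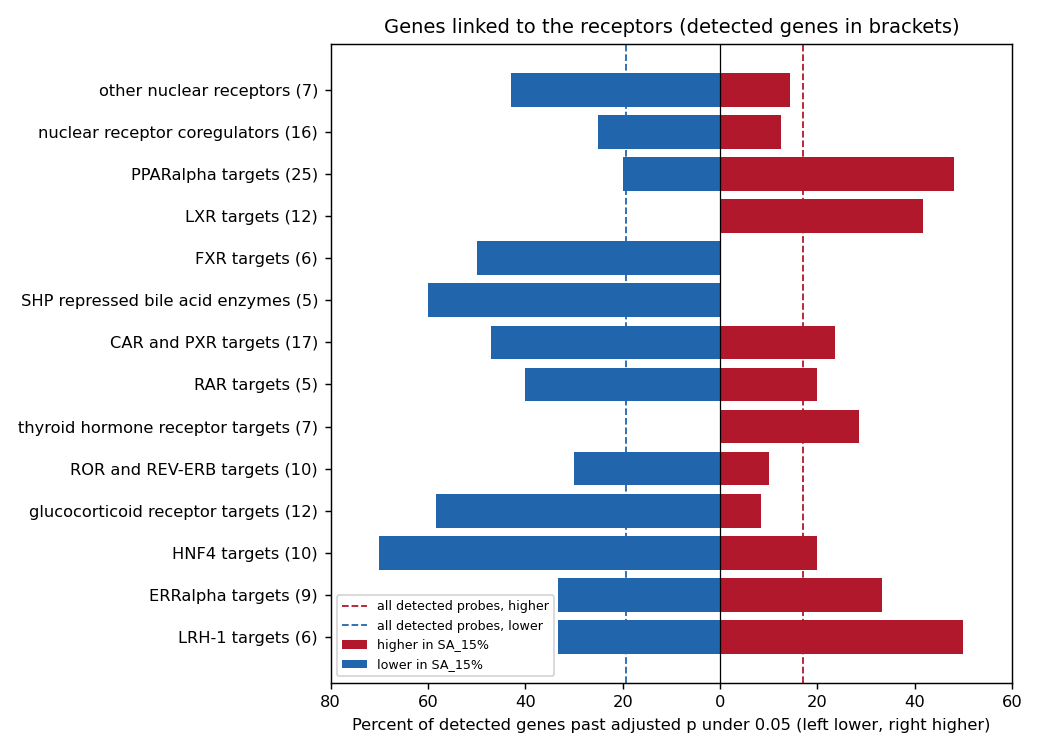
Percent of detected genes of each group that were lower (left, blue) or higher (right, red) in SA_15% livers at a limma adjusted p under 0.05, with the same shares of all detected probes as dashed lines (19.4% lower, 17.1% higher). Both lower retinoic acid targets entered the test mainly through the Ctrl group, and the lower Esrra targets include Esrra itself. Liver X receptor and thyroid hormone targets have no lower gene and farnesoid X receptor targets no higher gene, whereas with median centring each of these had 1, and genes repressed through Nr0b2 have no higher gene with either scaling.

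Within a group of mice, the signal of a receptor and that of its target were compared across the 15 animals for 9 pairs, which gave 18 permutation tests over both groups. None passed after Benjamini-Hochberg adjustment. The lowest p-value was that of Esrra with Pdk4 in Ctrl livers (Pearson r = -0.56, permutation p = 0.0311, adjusted p = 0.561, Spearman rho = -0.58, p = 0.0253, adjusted p = 0.456), and r was -0.49 without the 2 animals farthest from the median of Esrra. In SA_15% livers the same pair had r = -0.31 (permutation p = 0.264, adjusted p = 0.832) and rho = -0.40 (p = 0.138, adjusted p = 0.706). Nr1h3 and Abcg5 had r = -0.45 in SA_15% livers (permutation p = 0.098, adjusted p = 0.832) and r = 0.35 in Ctrl livers (p = 0.193, adjusted p = 0.832).

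Among the receptors themselves, 153 pairs were compared in each group, 306 permutation tests in all, and none passed after adjustment by Pearson or Spearman correlation. Unadjusted p-values under 0.05 (Pearson) were reached by 17 pairs in SA_15% livers and 15 in Ctrl livers. Some such values occur by chance and pairs of other probes were not compared, so these counts are not a result about receptors. The lowest Pearson p-value was that of Rxrg with Nr2c1 in Ctrl livers (r = -0.75, permutation p = 0.00121, adjusted p = 0.13). In SA_15% livers that pair had r = 0.28 (permutation p = 0.316, adjusted p = 0.711). Nr2f2 and Nr5a2 had r = 0.73 in SA_15% livers and r = 0.72 in Ctrl livers (permutation p = 0.00233 and 0.00255, adjusted p = 0.13 for both), with rho of 0.62 in SA_15% livers and 0.77 in Ctrl livers (permutation p = 0.0161 and 0.00116, adjusted p = 0.311 and 0.177). Without the 2 animals farthest from the median of Nr2f2, r was 0.36 in SA_15% livers and 0.67 in Ctrl livers. Both pairs were named after their values were seen.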

How the data were processed

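The authors hybridized RNA of each liver to MouseRef-8 v1.1 arrays and deposited, for 25697 probes, intensity values that were neither normalized nor background corrected; the same deposited table holds the detection p-value of every probe. The submitters' processing notes name GenomeStudio 2009.2. A second deposited table of quantile normalized intensity values served as an alternative.

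Quantile normalization and the log2 transformation followed the study's methods, and probes were tested with limma 3.58.1 in R 4.3.3 (lmFit and eBayes, SA_15% against Ctrl), with Benjamini-Hochberg adjustment over the 11329 probes detected at p under 0.05 on at least 15 of 30 arrays. limma stands in for the study's analysis of variance with a global error assessment, which was approximated as the pooled error, the running median of the variance of 201 probes of similar signal. Groups came from the sample titles and the labelled agent, since the treatment protocol label names the high dose on control samples too, and each array is 1 mouse.

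Probes were named from the annotation of the platform, with symbols brought up to date by Entrez number against RefSeq; 23978 probes had 1 symbol, none had several and 1719 had none. The brightest detected probe stood for a gene. The text names all members, up to 3 detected genes of each target group with the smallest p-values, and both genes of each receptor and target pair; 12 pairs were listed and 9 had both genes detected. Members, gene groups and pairs were chosen with earlier results of these data known, Pck1, Scd1, Pparg and Lpl among them. Correlations used 100000 permutations, two-sided. The code was tested on simulated data. Intervals are 95% intervals of the limma fit. Receptor proteins, the group on the lower dose of sebacic acid, and a block for the BeadChip, which the column names do not give, were not analysed here.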

Additional observations from a re-analysis of the deposited data

How the results depend on the processing

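Each value was recomputed with median centring, neqc, the second deposited table, all probes tested, probes detected on all arrays only, the mean over the probes of a gene, a classical ANOVA, the pooled error, limma with a trended robust prior, array weights, a replicate block, and without each liver in turn. Nr1i2, Nr2f2 and Esrra kept their calls in 11 alternatives and without any single liver. Each had only 1 detected probe, so the mean over probes could not change its difference. Vdr was kept through its Ctrl arrays, so its calls say nothing of stability. The count of higher receptors, 2, became 0 with median centring and 1 with the mean over probes, and the count past an unadjusted p of 0.001 with a 1.3-fold change became 1 with median centring (Esrra, -0.39) and 2 with neqc (Vdr, -0.44, and Nr2f2, -0.39). Without single livers 2 to 3 receptors were higher and 4 to 6 lower, with Vdr always among the lower ones. Uncalled differences changed sign with median centring in Nr1h4 (-0.10), Nr1i3 (-0.032), Rxrg (-0.021) and Nr2f6 (-0.085), with the mean over probes in Nr1h3 (0.039) and Nr2f6 (-0.0095), and without 1 of 7 livers each in Rxrg (values without single livers -0.0059 to 0.031) and Rxra (-0.034 to 0.013). The causes were not tested. Beyond the losses given above, Nr5a2 missed the threshold with all probes tested (adjusted p = 0.0694) and with the classical ANOVA (0.065).

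Correlations of the deviations of equally numbered livers ran between -0.07 and 0.39, with 10 of 15 over 0.1, and 6 of 15 SA_15% livers correlated best with their own number, a hint of shared numbers. No label states a pairing and not every correlation was over 0.1, so the block stayed an alternative. With the replicate block Rarb passed (0.17, adjusted p = 0.00486) and Nr2c1 did not (-0.09, adjusted p = 0.0738). That made 3 receptors higher and 5 lower, with Vdr, which had to differ, among the lower ones. Of 44 named target and cofactor genes, 39 kept their side of the threshold with median centring and 39 with the pooled error, where Dio1, Cyp3a11, Cyp7a1, Thrsp and Elovl3 also passed. Signal over background limits Vdr, Nr2c1, Nr2f1, Nr2f2, Rarb and Rxrg, whose differences grew by over 1.5 times with neqc.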
